A study of Homo sapiens with 12 samples.

Results

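The Notch receptors, their ligand, their target genes and the Groucho/TLE co-repressors were examined as 10 genes: TLE1, TLE2, TLE3, TLE4, NOTCH1, NOTCH2, NOTCH3, JAG1, HES1 and HEY1. They were found by symbol among the 58381 genes of the count table, and all 10 were among the 15836 genes expressed highly enough to be tested. TLE4 was chosen by its rise in MDA-MB-231 CD44 KO cells, so its change in that line is described here without a test. The other 9 genes were chosen by family and pathway.

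RNA was sequenced from Hs578T and MDA-MB-231 cells, established lines of triple negative breast cancer, with 3 libraries each of CD44 WT and of CD44 KO cells in either line. Cells were first transduced with a lentivirus for doxycycline-inducible Cas9 and selected with puromycin, before plates received guides or served as controls. In the CD44 KO groups of both lines, CD44, the cell surface receptor of hyaluronan, was cut in exons by CRISPR/Cas9 guides. Cells positive for CD29 and negative for CD44 were then sorted and expanded. The CD44 WT cells received transfection reagent without guides and were sorted as positive for CD29 and CD44. All 4 groups are sorted populations rather than clones and were kept in low serum before RNA was taken. Separate cultures for the 3 libraries within a group are not stated, so the p-values measure only the spread between these libraries.

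Notch receptors are cut in steps when a ligand such as JAG1 on a neighbouring cell binds them, first by an ADAM metalloprotease and then by gamma-secretase. The released intracellular part joins RBPJ and a Mastermind protein on DNA and turns on genes such as HES1 and HEY1, which encode repressors. HES proteins carry a short tail that recruits the Groucho/TLE proteins, which have no DNA-binding domain of their own and also bind TCF/LEF, RUNX and forkhead factors to silence genes. In breast epithelium the pathway takes part in choosing between luminal and basal fates.

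Levels are given as normalized CPM, which are counts scaled to a common library size (CPM) after correction for library composition. Libraries held 10257586 to 19725543 counts. CD44, the targeted gene, was lower in both CD44 KO groups, at 27.3 ± 2.06 CPM in Hs578T (mean ± SD, n = 3) against 507.4 ± 17.6 in its CD44 WT cells, and at 34.2 ± 5.40 CPM in MDA-MB-231 against 361.5 ± 1.70. Of the receptors that define triple negative tumours, PGR had 0 counts in all libraries and ESR1 averaged below 1 CPM in every group. ERBB2 averaged 61.9 to 94.5 CPM by group. VIM, a mesenchymal marker, and ITGB1, which encodes CD29, were high. Other mesenchymal markers differed between the lines, with FN1 at 4596 CPM in Hs578T CD44 WT and 275.6 CPM in MDA-MB-231 CD44 WT. CDH2 averaged 143.0 and 0.399 CPM in these groups, while ZEB1 averaged 59.3 and 77.5 CPM. EPCAM, which marks epithelial cells, reached 17.6 CPM in MDA-MB-231 CD44 WT and 0.0556 CPM in Hs578T CD44 WT. The keratins KRT8 and KRT18, also epithelial markers, were high in both lines, at 570.7 and 404.8 CPM in Hs578T CD44 WT and 376.8 and 631.1 CPM in MDA-MB-231 CD44 WT, and KRT5, KRT14 and CDH1 averaged at most 1.74 CPM in every group. Of the leukocyte markers, PTPRC was 0.369 CPM in Hs578T CD44 WT and 3.78 CPM in Hs578T CD44 KO (edgeR adjusted p = 3.19e-05), whereas CD3E and CD68 averaged at most 0.52 CPM in every group. Of the endothelial markers, PECAM1 averaged 11.6 and 13.9 CPM in Hs578T CD44 WT and CD44 KO, and 2.02 and 2.59 CPM in MDA-MB-231. CDH5 and VWF averaged at most 1.08 CPM in every group. The part of PTPRC and PECAM1 in the results below was not tested. In bulk RNA, fewer cells of a type and less RNA per cell cannot be told apart.

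TLE4 was the member with the largest fitted change in MDA-MB-231. Its 3 MDA-MB-231 CD44 WT libraries had 3.94, 4.19 and 3.49 CPM, from 46, 47 and 43 counts, and its 3 CD44 KO libraries had 30.2, 27.1 and 21.9 CPM, from 357, 512 and 222 counts. The lowest CD44 KO library thus lay far above the highest CD44 WT library. CD44 KO cells thus had 6.83-fold more TLE4 RNA, or 2.77 on the log2 scale (standard error 0.206). In Hs578T the gene was weakly expressed in every library, at 3.26, 2.39 and 1.52 CPM in CD44 WT and 1.20, 1.11 and 1.54 CPM in CD44 KO. The groups overlapped there, because the lowest CD44 WT value was below the highest CD44 KO value. Its log2 fold change was -0.93 (standard error 0.286) and did not pass the threshold used throughout, an adjusted p of at most 0.01 (adjusted p = 0.0412, quasi-likelihood test of edgeR, adjusted by Benjamini-Hochberg over all tested genes). Without Hs578T CD44 WT replicate 3, the lowest of its group, the log2 fold change was -1.16 and passed (adjusted p = 0.00846). From the highest to the lowest group mean, TLE4 stood at 26.4 ± 4.20 CPM in MDA-MB-231 CD44 KO, 3.87 ± 0.355 in MDA-MB-231 CD44 WT, 2.39 ± 0.868 in Hs578T CD44 WT and 1.28 ± 0.224 in Hs578T CD44 KO. The CD44 WT groups of the lines did not overlap (log2 fold change -0.67 for Hs578T over MDA-MB-231), which is given as a description because the MDA-MB-231 CD44 WT values entered the choice of TLE4.

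**Figure D1:**
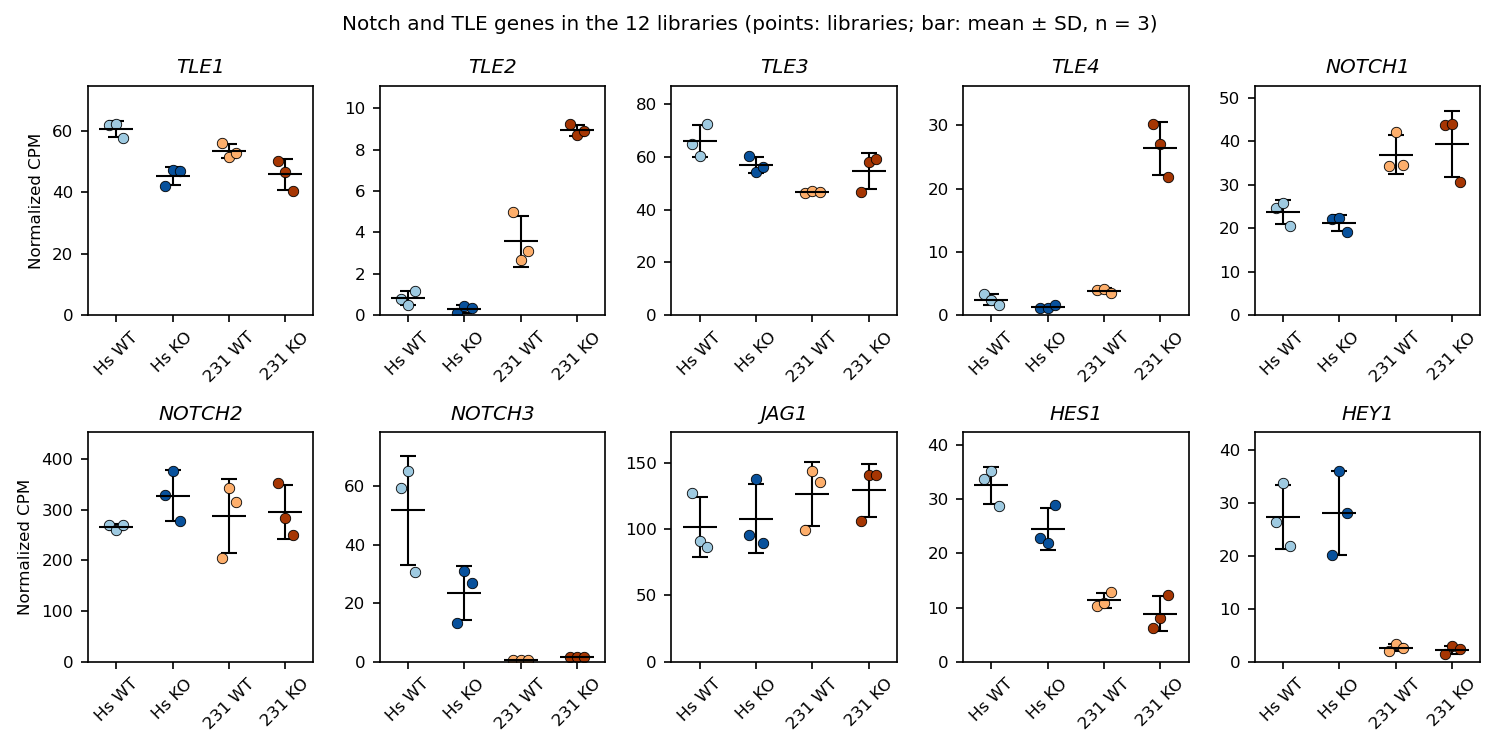
Normalized CPM (vertical axes, linear, from 0) of the 10 genes in each library, with points for libraries and bars for the group mean ± SD (n = 3); Hs is Hs578T and 231 is MDA-MB-231. The TLE4 points of MDA-MB-231 CD44 KO, 21.9 to 30.2 CPM, lie apart from the 9 other libraries, which are at 4.19 CPM or lower.

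TLE2, a second co-repressor of the family, passed the test in MDA-MB-231. It had 4.97, 2.67 and 3.08 CPM in the CD44 WT libraries and 9.23, 8.69 and 8.89 CPM in the CD44 KO libraries. All 3 CD44 KO values lay above all CD44 WT values and close to each other. TLE2 rose 2.49-fold, which is 1.32 on the log2 scale with a standard error of 0.265 (edgeR adjusted p = 0.00506). This call was lost when the unnumbered CD44 WT library, CD44 WT replicate 3 or any of the 3 CD44 KO libraries of MDA-MB-231 was left out, with adjusted p-values between 0.0149 and 0.0297 and log2 fold changes from 1.15 to 1.63 over all 12 fits without a library. In Hs578T, TLE2 was near the limit of detection, with 0.763, 0.494 and 1.18 CPM in CD44 WT and 0.0802, 0.432 and 0.341 CPM in CD44 KO, from 1 to 14 counts per library. The log2 fold change of -1.42 (standard error 0.517) did not pass (adjusted p = 0.0814). The change differed between the lines by -2.74 on the log2 scale (Hs578T minus MDA-MB-231, standard error 0.578, adjusted p = 0.00709, edgeR interaction contrast). That call held only in the fits without Hs578T CD44 WT replicate 2 or MDA-MB-231 CD44 WT replicate 1, and the adjusted p was between 0.011 and 0.0259 without any other library. It did not pass with the newer quasi-likelihood fit of edgeR. The same difference for TLE4 was -3.70 (standard error 0.351), given as a description because the choice of TLE4 used it.

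TLE1 and TLE3, which among TLE1 to TLE4 had the most RNA per length in every group, moved less. TLE1 had 61.9, 62.1 and 57.5 CPM in Hs578T CD44 WT and 41.9, 47.2 and 46.8 CPM in Hs578T CD44 KO. The groups did not overlap, and TLE1 fell by 0.42 on the log2 scale (log2 fold change -0.42, standard error 0.0963, adjusted p = 0.00831, edgeR). The call was lost without any 1 of the 6 Hs578T libraries, and also without MDA-MB-231 CD44 WT replicate 3 or CD44 KO replicate 2, with adjusted p-values between 0.0113 and 0.0515, and it was lost with no filter on low counts. In MDA-MB-231, TLE1 averaged 53.4 ± 2.35 CPM in CD44 WT and 45.7 ± 4.95 CPM in CD44 KO and did not pass (log2 fold change -0.22, standard error 0.0969, adjusted p = 0.182). TLE3 had log2 fold changes of -0.21 (standard error 0.102, adjusted p = 0.199) in Hs578T and 0.23 (standard error 0.104, adjusted p = 0.188) in MDA-MB-231, and neither passed.

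The makeup of TLE1 to TLE4 was compared per exonic length, as each gene's share of their summed CPM per kb. TLE5, a further family member, is not in this sum although it had more RNA per length than TLE1. It had 33.0 and 26.1 CPM per kb in Hs578T CD44 WT and CD44 KO, and 30.0 and 35.6 in MDA-MB-231. TLE4 supplied 2.97% ± 0.313 of the sum in MDA-MB-231 CD44 WT and 16.8% ± 1.76 in CD44 KO (SD, n = 3). TLE2 supplied 5.51% ± 1.61 and 11.6% ± 0.692, and TLE1 68.3% ± 0.398 and 48.7% ± 2.56. TLE1 remained the largest share in every group, and TLE4 in MDA-MB-231 CD44 KO was still below TLE3 at 22.9% ± 3.92. In Hs578T the shares stayed closer together, with TLE1 at 68.3% ± 2.80 and 66.0% ± 2.37 and TLE4 at 1.61% ± 0.566 and 1.12% ± 0.180 in CD44 WT and CD44 KO. The sum of TLE1 to TLE4 ran from 17.9 to 18.4 CPM per kb in Hs578T CD44 WT libraries and from 13.5 to 14.3 in CD44 KO libraries. In MDA-MB-231 it ran from 15.4 to 16.8 CPM per kb in CD44 WT libraries and from 17.8 to 19.9 in CD44 KO libraries. These shares were not tested, since the MDA-MB-231 values hold the gene that was chosen for its rise.

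**Figure D2:**
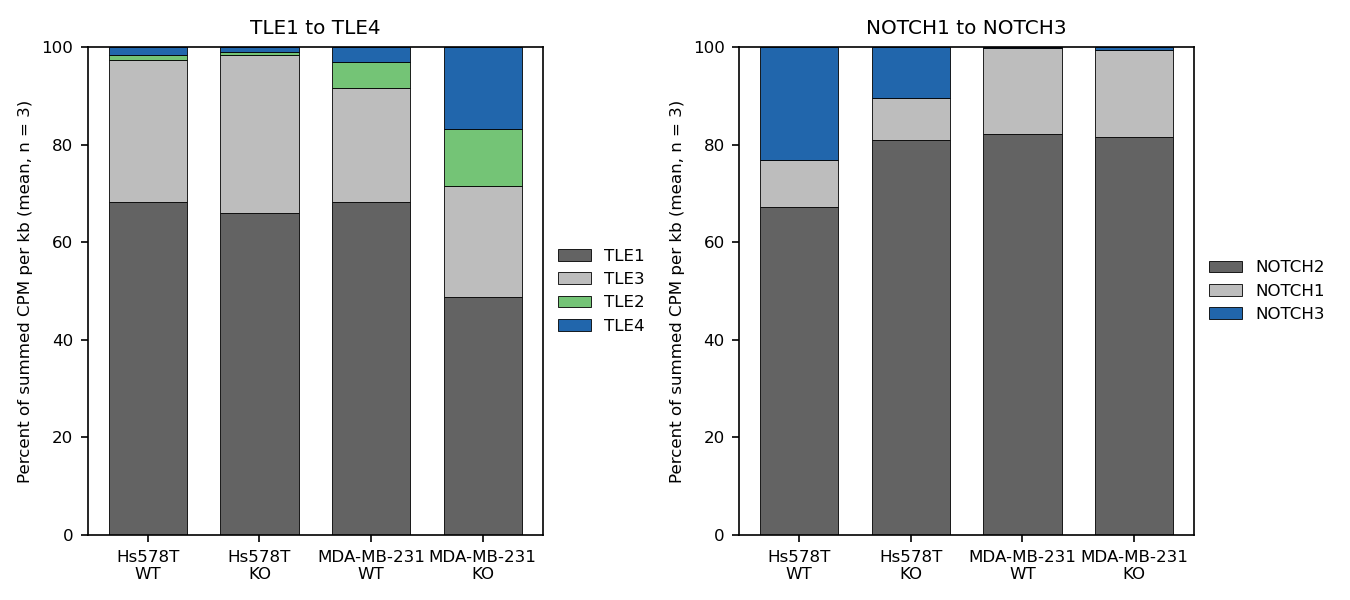
Shares of the summed CPM per kb (percent, vertical axes from 0 to 100) of TLE1 to TLE4 and of NOTCH1 to NOTCH3, as group means of 3 libraries. TLE4 and TLE2 take 16.8% and 11.6% of the TLE sum in MDA-MB-231 CD44 KO, and NOTCH3 takes 23.0% of the NOTCH sum in Hs578T CD44 WT and under 1% in both MDA-MB-231 groups.

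TLE4 and TLE1 lie on the same arm of chromosome 9, TLE4 at chr9:79571773-79726882 on the plus strand and TLE1 at chr9:81583683-81689305 on the minus strand (GRCh38, as in the count table). TLE2 lies at chr19:2997638-3047635 on the minus strand. Promoter windows from 250 bases before to 50 after the RefSeq start of each gene (GRCh38.p14) were taken for 9 of the members, all but HEY1. RefSeq starts can differ from those of the count table, and the TLE1 window lies wholly before the count-table start of TLE1. The windows were searched on both strands for the RBPJ core TGGGAA, the E-box CACGTG, the N-box CACNAG, the TCF/LEF core CTTTGA and the RUNX core TGTGGT. The windows of the TLE genes with the largest changes, and of TLE1 for comparison, are shown because these members of 1 family differed in the CD44 KO cells. Capitals mark a match to any of these motifs:
TLE4, chr9:79571715-79572014, plus strand: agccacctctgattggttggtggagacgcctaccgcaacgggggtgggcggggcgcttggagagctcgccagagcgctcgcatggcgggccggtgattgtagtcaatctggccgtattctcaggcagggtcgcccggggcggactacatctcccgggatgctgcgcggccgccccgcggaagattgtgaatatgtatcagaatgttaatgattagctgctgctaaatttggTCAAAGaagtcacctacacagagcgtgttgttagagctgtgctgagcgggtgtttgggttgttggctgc
TLE2, chr19:3047586-3047885, minus strand: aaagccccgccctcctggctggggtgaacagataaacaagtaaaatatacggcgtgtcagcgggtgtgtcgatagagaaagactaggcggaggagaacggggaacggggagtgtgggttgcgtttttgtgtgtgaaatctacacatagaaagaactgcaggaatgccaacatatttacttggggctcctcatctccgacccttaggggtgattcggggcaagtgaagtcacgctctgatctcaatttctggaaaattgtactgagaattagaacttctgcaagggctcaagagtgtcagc
TLE1, chr9:81689498-81689797, minus strand: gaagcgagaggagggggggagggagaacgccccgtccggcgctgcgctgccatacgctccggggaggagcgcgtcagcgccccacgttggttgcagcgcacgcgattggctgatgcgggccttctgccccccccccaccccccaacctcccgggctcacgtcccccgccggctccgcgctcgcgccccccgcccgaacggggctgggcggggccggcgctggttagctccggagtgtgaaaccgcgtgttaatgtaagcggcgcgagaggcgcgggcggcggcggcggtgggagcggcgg

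The TLE4 window holds a single match, a TCF/LEF core read on the minus strand that begins 19 bases before the start site. The TLE2 and TLE1 windows hold none of the 5 motifs, and they differ in base composition, with 49.3% and 76.0% G and C. A TCF/LEF core occurs in 13.1% of the 27305 RefSeq promoter windows, so a match is a description of the letters and not a site of binding.

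The 29 other tested genes within 5 Mb of TLE4 were read to see whether the change extended along the chromosome. In MDA-MB-231 their median log2 fold change was -0.05, and edgeR and DESeq2 each called 0 of them, with 6 at an unadjusted p under 0.05 in edgeR, while edgeR called 4.62% of all tested genes in that line. The nearest tested genes on the side of lower coordinates were CHCHD2P9 (0.29, at 180 kb), PSAT1 (-0.26, at 1242 kb), a serine synthesis enzyme, and CEP78 (-0.18, at 1292 kb), a centrosome protein. On the other side they were TLE1 (-0.22, at 1857 kb), RASEF (0.42, at 3253 kb) and FRMD3 (0.10, at 3516 kb). None of these log2 fold changes passed in MDA-MB-231. CHCHD2P9, a pseudogene by its symbol, was the only tested gene closer than 1242 kb. In Hs578T 3 of the 29 genes were called lower (RFK, TLE1 and NTRK2) and 2 higher (TRPM6 and FRMD3), in a line where 7.51% of all tested genes were called, with a median log2 fold change of -0.02.

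**Figure D3:**
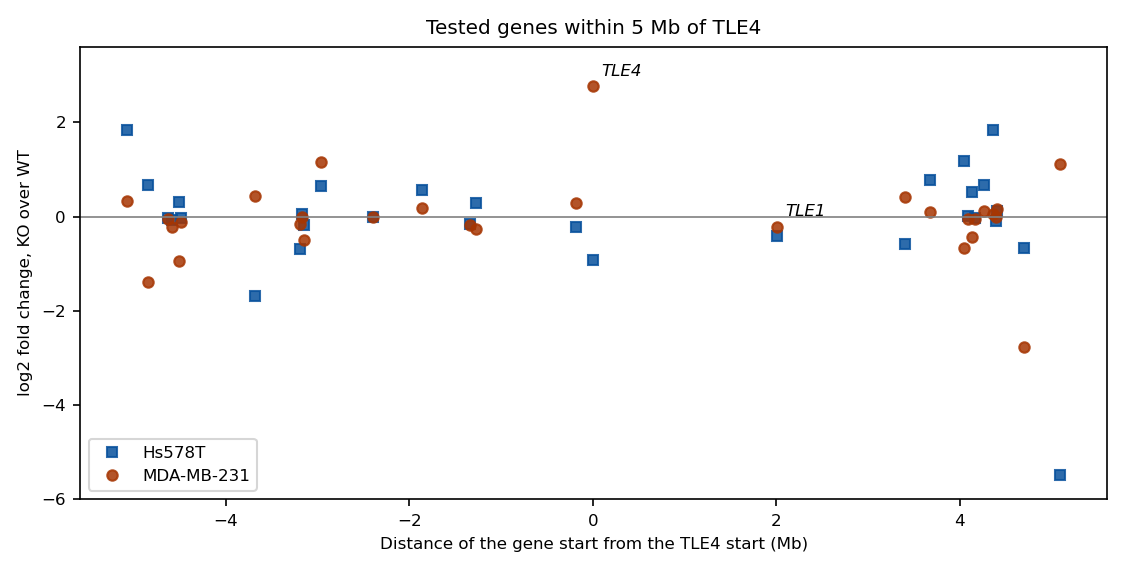
Change of CD44 KO against CD44 WT cells on the log2 scale (vertical axis) for TLE4 and 29 other tested genes against the distance of their start from that of TLE4 in Mb (horizontal axis), with squares for Hs578T and circles for MDA-MB-231. TLE4 in MDA-MB-231 stands at 2.77 while its neighbours there have a median of -0.05; the values furthest below 0 belong to genes with few or no counts in a group.

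Among the receptors, NOTCH2 had the most RNA per length in every group, at 15.8 ± 0.343 and 19.5 ± 2.98 CPM per kb in Hs578T CD44 WT and CD44 KO and 17.1 ± 4.31 and 17.6 ± 3.14 CPM per kb in MDA-MB-231. It supplied 67.3% to 82.2% of the summed CPM per kb of NOTCH1 to NOTCH3 by group. NOTCH2 did not pass in Hs578T (log2 fold change 0.30, standard error 0.166, adjusted p = 0.259), although the CD44 WT libraries, 258.8 to 268.9 CPM, lay below the CD44 KO libraries, 276.7 to 376.6 CPM. In MDA-MB-231 its log2 fold change was 0.04 (standard error 0.166, adjusted p = 0.947), and the sign changed without CD44 WT replicate 1 (-0.15) or CD44 KO replicate 1 (-0.11). The near-identical NOTCH2NLA, a partial copy of NOTCH2, was given 46 counts over all 12 libraries, and reads that fit both genes would not have been counted, so the level of NOTCH2 may be understated. NOTCH1 did not pass in either line, with log2 fold changes of -0.16 in Hs578T and 0.10 in MDA-MB-231 (adjusted p = 0.539 and 0.727). NOTCH4, the remaining receptor, had 0 counts in all 12 libraries.

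NOTCH3 was the receptor that changed in Hs578T. It had 59.6, 65.4 and 30.6 CPM in CD44 WT and 13.2, 30.9 and 26.8 CPM in CD44 KO. The groups overlapped by a narrow margin, because CD44 WT replicate 3 was just below CD44 KO replicate 2. NOTCH3 fell by 1.13 on the log2 scale (standard error 0.266, adjusted p = 0.00939, edgeR), or 2.19-fold, and its share of the NOTCH sum went from 23.0% ± 6.74 to 10.5% ± 3.87. The call held only without Hs578T CD44 WT replicate 3 or MDA-MB-231 CD44 WT replicate 1. Leaving out any other library gave adjusted p-values between 0.0104 and 0.0581, and the call was also lost when Hs578T was fitted alone or with robust estimation. In MDA-MB-231, NOTCH3 was barely expressed, with 0.514, 0.445 and 0.406 CPM in CD44 WT from 5 or 6 counts, and 1.44, 1.43 and 1.48 CPM in CD44 KO from 15 to 27 counts. Every CD44 KO library was above every CD44 WT library, but the log2 fold change of 1.65 (standard error 0.676) did not pass (adjusted p = 0.151). With no filter on low counts the same change passed (1.67, adjusted p = 0.000265). The difference between the lines, -2.78 on the log2 scale (standard error 0.715), had an adjusted p of 0.0226, and passed without Hs578T CD44 WT replicate 3 (-3.05, adjusted p = 0.00368), with DESeq2 (-2.81, adjusted p = 6.11e-05) and with no filter on low counts (-2.78, adjusted p = 1.77e-10).

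JAG1, the ligand among the members, had similar levels in all 4 groups. In Hs578T it had 127.3, 90.8 and 86.8 CPM in CD44 WT and 95.8, 137.7 and 89.8 CPM in CD44 KO. In MDA-MB-231 it had 99.1, 144.2 and 136.0 CPM in CD44 WT and 106.4, 141.1 and 140.8 CPM in CD44 KO. The CD44 WT and CD44 KO libraries overlapped in both lines. JAG1 differed by 0.09 on the log2 scale in Hs578T (standard error 0.187, adjusted p = 0.828) and by 0.03 (standard error 0.187, adjusted p = 0.969) in MDA-MB-231, neither of which passed, and the sign depended on which library was left out. Without Hs578T CD44 KO replicate 2 the value in Hs578T was -0.13, and without MDA-MB-231 CD44 WT replicate 1 the value in MDA-MB-231 was -0.11.

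HES1 and HEY1, target genes that encode basic helix-loop-helix repressors, did not pass in either line. HES1 had 33.8, 35.3 and 28.8 CPM in Hs578T CD44 WT and 22.8, 21.9 and 28.9 CPM in Hs578T CD44 KO. One CD44 KO library thus reached the lowest CD44 WT library, and the log2 fold change was -0.41 (standard error 0.183, adjusted p = 0.154). In MDA-MB-231 HES1 had 10.2, 10.9 and 12.9 CPM in CD44 WT and 6.18, 8.10 and 12.4 CPM in CD44 KO, a change of -0.36 on the log2 scale that did not pass (standard error 0.209, adjusted p = 0.317). HEY1 had log2 fold changes of 0.05 (standard error 0.215, adjusted p = 0.929) in Hs578T and -0.18 (standard error 0.341, adjusted p = 0.816) in MDA-MB-231. Its sign turned without Hs578T CD44 KO replicate 2 (-0.18 in Hs578T) and without MDA-MB-231 CD44 KO replicate 1 (0.044 in MDA-MB-231).

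The promoter windows of HES1 and NOTCH3 are shown because HES1 is the target gene used as a reading of the pathway and NOTCH3 the receptor that fell in Hs578T. Capitals mark the motifs as above:
HES1, chr3:194135898-194136197, plus strand: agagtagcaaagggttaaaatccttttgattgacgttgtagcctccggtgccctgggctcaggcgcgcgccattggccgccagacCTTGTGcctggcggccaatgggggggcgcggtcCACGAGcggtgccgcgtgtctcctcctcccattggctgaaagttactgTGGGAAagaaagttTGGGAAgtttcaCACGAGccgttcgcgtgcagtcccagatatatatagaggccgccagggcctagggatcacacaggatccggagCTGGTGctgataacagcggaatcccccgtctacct
NOTCH3, chr19:15200946-15201245, minus strand: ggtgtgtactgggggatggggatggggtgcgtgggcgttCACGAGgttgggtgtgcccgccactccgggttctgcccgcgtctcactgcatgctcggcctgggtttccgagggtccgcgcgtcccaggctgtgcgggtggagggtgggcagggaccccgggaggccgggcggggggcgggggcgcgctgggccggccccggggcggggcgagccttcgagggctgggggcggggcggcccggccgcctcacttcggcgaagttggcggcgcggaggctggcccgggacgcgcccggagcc

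HES1 is the only member among the 9 windows with the RBPJ core, which it holds on the plus strand 84 and 70 bases before the start site. No window of HEY1, the other target gene, was searched. The HES1 window also holds 4 N-boxes, the element that HES proteins bind. The RBPJ core occurs in 24.3% and the N-box in 38.0% of the 27305 windows. The NOTCH3 window holds 1 N-box, 211 bases before the start site, and 78.3% of its bases are G or C. Of the other members, TLE3 has an E-box, found in 7.43% of windows, and 3 N-boxes. NOTCH1 has 2 N-boxes that overlap, and NOTCH2 has 1. The RUNX core, found in 13.1% of windows, is in none of the 9.

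Counted together, 2 of the 10 members were called in Hs578T, TLE1 and NOTCH3, both lower, while 7.51% of the 15836 tested genes were called in either direction and 3.86% were called lower. Of the 9 members other than TLE4, 1 was called in MDA-MB-231, TLE2, which was higher, while 4.62% of all tested genes were called and 1.97% were called higher. The difference between the lines was called for 1 of these 9, TLE2, against 4.12% of all genes. The CD44 KO and CD44 WT libraries did not overlap for 4 of 10 members in Hs578T (NOTCH2 higher and TLE1, TLE2 and TLE3 lower) against 37.3% of all tested genes, and in MDA-MB-231 for TLE2 and NOTCH3 (higher) and TLE1 (lower) among the members other than TLE4 against 25.5%. TLE4 did not overlap there either, which its choice had fixed. The median log2 fold change of the 9 members without TLE4 was -0.21 for Hs578T and 0.04 for MDA-MB-231, beside medians of 0.00 and -0.01 over all tested genes.

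**Figure D4:**
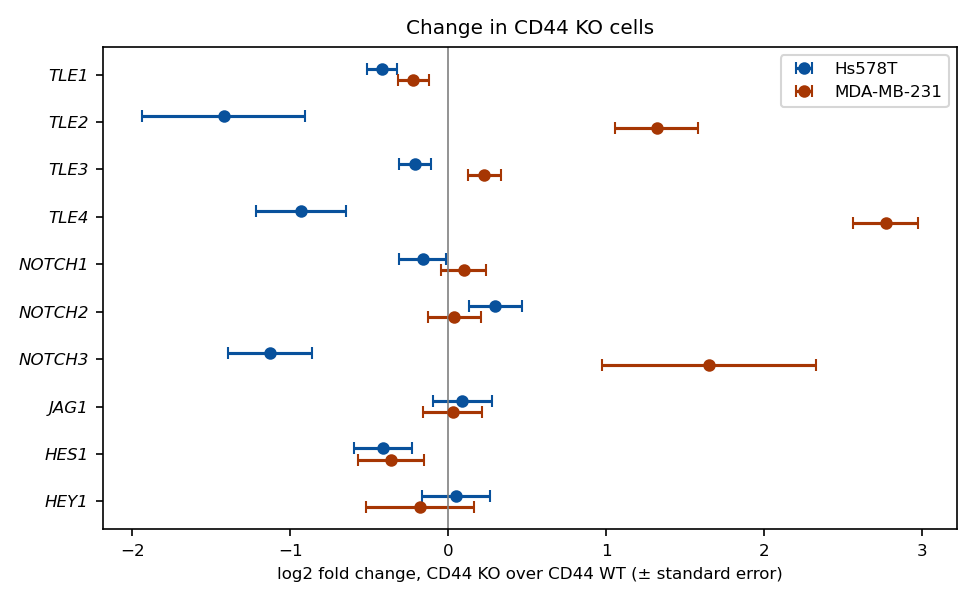
Change of CD44 KO against CD44 WT cells on the log2 scale (horizontal axis) with its standard error for each of the 10 genes in both lines, coloured by line. TLE2, TLE4 and NOTCH3 lie below 0 in Hs578T (-1.42, -0.93 and -1.13) and above 0 in MDA-MB-231 (1.32, 2.77 and 1.65), while JAG1, NOTCH1, NOTCH2 and HEY1 lie between -0.18 and 0.30 in both.

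Between the CD44 WT groups of the lines, 6 of the 9 members other than TLE4 were called, in a comparison where most genes differed and 61.5% of all tested genes were called. Higher in Hs578T were NOTCH3 (log2 fold change 6.81, adjusted p = 2.06e-09), HEY1 (3.36, adjusted p = 2.76e-08), HES1 (1.52, adjusted p = 4.14e-06) and TLE3 (0.50, adjusted p = 0.000465), all by edgeR. Higher in MDA-MB-231 were TLE2 (-2.13, adjusted p = 5.34e-05) and NOTCH1 (-0.64, adjusted p = 0.00108). NOTCH3 thus averaged 51.9 ± 18.6 CPM in Hs578T and 0.455 ± 0.055 CPM in MDA-MB-231. These 6 calls held in all 12 fits without a library. TLE1, NOTCH2 and JAG1 did not pass, with log2 fold changes of 0.18, -0.11 and -0.31.

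The other genes of the pathway were read from a list of 83, of which 76 were tested. In Hs578T 6 of the 76 passed (7.89%), 5 lower and 1 higher, close to the 7.51% of all tested genes. In MDA-MB-231 6 passed (7.89%), 2 lower and 4 higher, beside 4.62% of all tested genes. The median log2 fold changes of the list were -0.01 and 0.03. No canonical ligand passed, and DLL1 had 0 counts in all libraries. DLK2, a non-canonical ligand, rose in MDA-MB-231 from 13.1 ± 0.810 to 22.6 ± 2.74 CPM (log2 fold change 0.78, adjusted p = 0.00513, edgeR). Of 9 receptor-processing genes, ADAM17, which can shed Notch receptors, fell in MDA-MB-231 from 92.1 ± 14.1 to 61.8 ± 7.96 CPM (log2 fold change -0.57, adjusted p = 0.00547), and NCSTN, a gamma-secretase subunit and the gene of this role with the highest mean CPM, had 0.06 in Hs578T and -0.14 in MDA-MB-231. Of 13 endocytosis and turnover genes, NEURL1B, a ubiquitin ligase for Notch ligands, fell in Hs578T from 49.9 ± 11.9 to 29.7 ± 7.45 CPM (-0.74, adjusted p = 0.00821).

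In the nuclear complex of 9 genes, MAML1, the Mastermind coactivator, fell in Hs578T from 82.1 ± 3.15 to 62.2 ± 1.95 CPM (log2 fold change -0.40, adjusted p = 0.00609, edgeR). SNW1, a splicing factor that also binds the Notch complex, fell in MDA-MB-231 from 183.1 ± 18.1 to 125.7 ± 3.74 CPM (-0.54, adjusted p = 0.000532). RBPJ itself did not pass, at 0.17 in Hs578T and 0.11 in MDA-MB-231. Among 13 tested co-repressors, L3MBTL3, which binds RBPJ, rose in Hs578T from 5.56 ± 1.35 to 10.5 ± 1.65 CPM (0.93, adjusted p = 0.00311). Among 9 tested targets, HEYL fell in Hs578T from 2.77 ± 0.415 to 1.11 ± 0.293 CPM (-1.32, adjusted p = 0.00344) and HES7 rose in MDA-MB-231 from 1.43 ± 0.338 to 3.12 ± 0.552 CPM (1.10, adjusted p = 0.00828). Both moved the same way in the other line without passing, HEYL by -0.57 in MDA-MB-231 and HES7 by 0.58 in Hs578T (edgeR adjusted p = 0.218 and 0.034).

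The DNA-binding factors that recruit TLE proteins held the largest change of the list. LEF1 had 219 counts over the 3 Hs578T CD44 WT libraries and 1 count over the 3 CD44 KO libraries, a ratio of 230.5 with an exact 95% counting interval from 40.9 to 9146, which covers counting error only, while in MDA-MB-231 it averaged 15.3 ± 1.95 and 17.4 ± 4.45 CPM. TCF7L1, of the same TCF/LEF family, fell in Hs578T from 14.8 ± 1.54 to 6.90 ± 0.368 CPM (log2 fold change -1.10, adjusted p = 0.0061, edgeR). It had a similar fitted change in MDA-MB-231, from 2.94 ± 0.341 to 1.48 ± 0.932 CPM, which did not pass (-0.97, adjusted p = 0.0847). The difference between the lines was -0.13 (adjusted p = 0.928, edgeR interaction contrast). In MDA-MB-231 RUNX2 rose from 19.5 ± 1.67 to 31.5 ± 1.02 CPM (0.69, adjusted p = 0.00144) and FOXA1, a forkhead factor, from 4.25 ± 1.07 to 8.33 ± 1.04 CPM (0.98, adjusted p = 0.00623). In the line where they did not pass, ADAM17, MAML1, L3MBTL3 and RUNX2 kept their direction (log2 fold changes -0.19, -0.01, 0.27 and 0.23). The sign was opposite there for DLK2, NEURL1B, SNW1, LEF1 and FOXA1 (-0.10, 0.36, 0.01, 0.19 and -0.30). LEF1, SNW1 and RUNX2 kept their calls in all 12 fits without a library, and the other 9 genes lost theirs in 3 to 10 fits, with adjusted p-values up to 0.0592 (NEURL1B without Hs578T CD44 WT replicate 1). Only LEF1 of the list was called in Hs578T without CD44 WT replicate 2, and only SNW1 and RUNX2 in MDA-MB-231 without CD44 WT replicate 3 or any 1 CD44 KO library. With each line fitted alone, ADAM17, SNW1, HES7 and FOXA1 in MDA-MB-231 and NEURL1B in Hs578T did not pass.

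**Figure D5:**
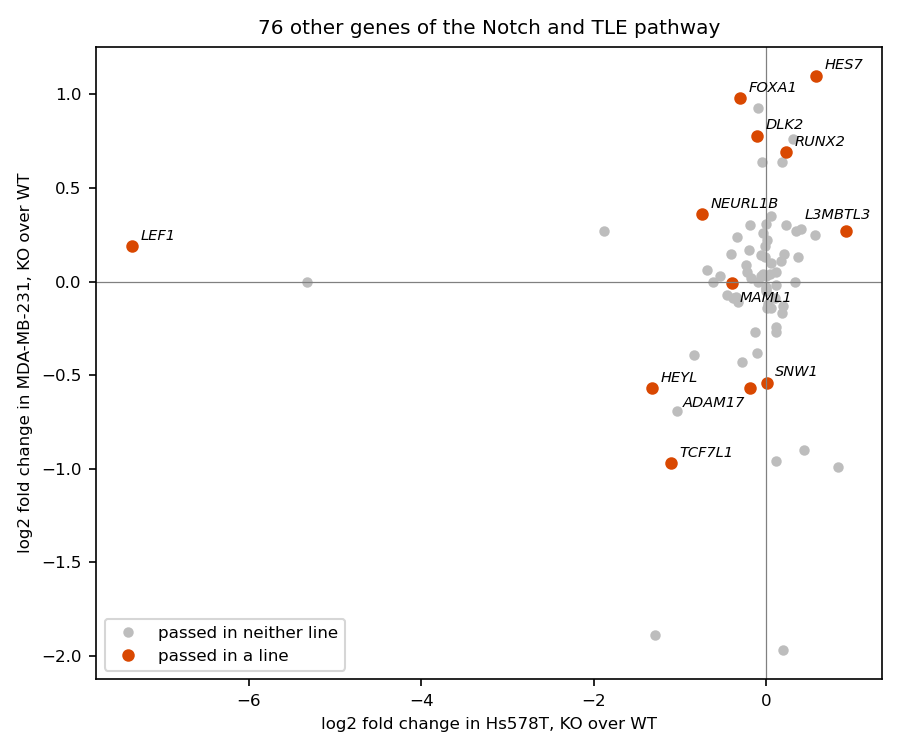
Change of CD44 KO against CD44 WT cells on the log2 scale in Hs578T (horizontal axis) against that in MDA-MB-231 (vertical axis) for the 76 other pathway genes tested, with named points for the 12 genes that passed in a line. LEF1 lies far to the left on its fitted value, which depends on the prior count because the gene had 1 count in Hs578T CD44 KO, and no gene passed in both lines.

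The genes whose log2 CPM followed TLE4 most closely over the 12 libraries were ZNF473, TSPAN3, NUP188, BLM and TICRR, with Pearson's r from 0.962 to 0.976 as a description without a test. The 12 points share lines and groups, and the highest TLE4 values are all from MDA-MB-231 CD44 KO. In MDA-MB-231, BLM, a DNA helicase, averaged 35.8 ± 1.81 CPM in CD44 WT and 51.2 ± 6.57 in CD44 KO, and TICRR, a replication initiation protein, 54.7 ± 0.825 and 73.3 ± 3.11, while NUP188, a nuclear pore protein, ranged from 186.7 to 208.7 CPM in CD44 WT and from 262.1 to 330.1 CPM in CD44 KO libraries of that line. The fitted folds of the 5 genes in MDA-MB-231 ran from 1.17 to 1.48, beside 6.83 for TLE4.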

How the data were processed

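RNA-seq counts were used for 12 libraries, 3 per group. The authors aligned paired reads with HISAT2 2.1.0 to GRCh38 and counted them on the expected strand with featureCounts 1.6.2 on GENCODE 28 at a mapping quality of at least 10. The deposited values are whole-number counts of 58381 genes with exonic lengths, and 57754 genes were given a symbol. Genes of at least 300 nt above 1 CPM in 2 libraries or more were tested with edgeR 4.0.16 (R 4.3.3) by TMM factors, 4 group means and the quasi-likelihood test, and called where the Benjamini-Hochberg adjusted p was 0.01 or lower. The methods of the study keep genes under 300 nt, which was read as a slip and run as an alternative that kept these as well. Log2 CPM used a prior count of 2. The script was tested on simulated data. One MDA-MB-231 CD44 WT library has no replicate number in the labels. Alternatives were DESeq2 1.42.0, other scalings, filters, fits and thresholds, replicate blocks and leaving out each library. The members and the pathway, marker and motif lists were chosen with earlier results of these data known. A gene of the marker list is not reported here. Named pathway genes were those called, up to 6 per line, and the highest of a role. Named neighbours were the nearest 3 per side, with called ones named after their values were seen, and the 5 genes most like TLE4 were taken by Pearson's r.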

Additional observations from a re-analysis of the deposited data

Results flagged for a closer look

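For 6 genes of the family and pathway, the change in CD44 KO cells differed between the lines (Hs578T minus MDA-MB-231, log2 scale). Of the 76 tested genes of the pathway list, 5.26% were called for this difference, close to the 4.12% of all tested genes. TLE4 differed by -3.70, which the choice of the gene used and which is therefore only described. TLE2 differed by -2.74 (adjusted p = 0.00709, edgeR interaction contrast). LEF1 differed by -7.54 (adjusted p = 6.1e-05), a fitted value that rests on 1 count in Hs578T CD44 KO. HES2, a HES family gene, differed by 1.81 (adjusted p = 0.00425), with 4.45 ± 1.70 and 7.99 ± 0.452 CPM in Hs578T CD44 WT and CD44 KO and 9.92 ± 1.32 and 5.01 ± 1.43 CPM in MDA-MB-231 (SD, n = 3). SNW1 differed by 0.55 (adjusted p = 0.00658). TLE5, a short family member that lacks the WD40 repeats, differed by -0.58 (adjusted p = 0.00688), with group means of 175.1 and 138.5 CPM in Hs578T and 159.1 and 188.4 CPM in MDA-MB-231. Of these calls, LEF1 held in all 12 fits without a library, HES2 in 6, SNW1 and TLE5 in 3 and TLE2 in 2. With the replicate block the calls of SNW1, TLE5 and TLE2 were lost, and with consecutive label numbers as a block those of TLE5 and TLE2.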

How the results depend on the processing

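Of 939 values of the members under the alternatives, 863 kept their direction and side of the threshold, 41 no longer passed, 13 newly passed and 22 changed sign; 283 of 380 values of the named pathway genes did so and 97 no longer passed. The causes were not tested. In Hs578T the 2 called members became 1 with no filter on low counts, with each line alone and with robust estimation, and 0 with the replicate block, which lost TLE1 and NOTCH3 (0 to 2 without a library). In MDA-MB-231 the 1 called member other than TLE4 became 2 with no filter and with consecutive label numbers as a block, an alternative added after seeing the data (0 to 1 without a library). For the difference between the lines, 1 became 2 with DESeq2, with no filter and with 0.05 as the limit on adjusted p, and 0 with the newer quasi-likelihood fit and with the replicate block, which lost TLE2 (0 to 1), while with consecutive label numbers as a block NOTCH3 passed (adjusted p = 0.000354) in place of TLE2. Between the CD44 WT groups the count was 6 to 7 without a library, TLE4 included in the higher count. Of the pathway list, 10 genes passed in Hs578T with no filter, 12 at 0.05 and 3 with the replicate block (1 to 8 without a library), and in MDA-MB-231 10 passed with DESeq2 and with no filter, 2 with the line alone and 13 at 0.05 (2 to 6). Over all genes, 1984 were called in Hs578T with no filter and 2253 at 0.05 (605 to 1685 without a library, main count 1189). In MDA-MB-231 1138 were called with DESeq2, 1370 with no filter, 315 alone and 1518 at 0.05 (355 to 763, main count 731), and for the difference 1179, 1373 and 1670 with DESeq2, no filter and 0.05 (396 to 804, main count 653). The CD44 WT groups differed in 8669 to 9827 genes. The difference of NOTCH2 between the CD44 WT groups became 0.0018 with library size only. Without a library, signs turned for NOTCH2 in MDA-MB-231 (-0.15 to 0.18) and between lines (-0.30 to 0.027), for JAG1 in Hs578T (-0.13 to 0.28), in MDA-MB-231 (-0.11 to 0.16) and in their difference (-0.17 to 0.25), for HES1 in that difference (-0.24 to 0.22) and for HEY1 in Hs578T (-0.18 to 0.24) and MDA-MB-231 (-0.49 to 0.044). Libraries with the same replicate number had correlations of their deviations from -0.0957 to 0.0222 in Hs578T and 0.00793 to 0.164 in MDA-MB-231. These low values gave no clear pairing by replicate number. With consecutive label numbers the correlations were 0.0315, 0.101 and 0.134 in Hs578T. In MDA-MB-231 this grouping gave the same pairs and values. Whether the label numbers pair the samples was not tested. Depth limits TLE2 in Hs578T and NOTCH3 in MDA-MB-231, which had 1 to 27 counts per library.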

Other observations

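TLE5 lies next to TLE2 on chromosome 19, at 3052910 to 3063107 beside 2997638 to 3047635 (GRCh38), and the change of both in CD44 KO cells differed between the lines in the same direction. TLE5 had log2 fold changes of -0.34 (adjusted p = 0.0152, edgeR) in Hs578T and 0.24 (adjusted p = 0.0943) in MDA-MB-231, and neither passed. This pair was noticed after the values were seen.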
